A study of Gallus gallus with 12 samples.

Results

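The WNT ligands, their receptors, secreted antagonists and feedback genes were followed in chick limb-bud cultures that overexpressed 1 of 5 transcription factors. A gene was a member when its listed name matched a pattern of WNT, FZD, SFRP, DKK, RSPO, LGR, LRP5, LRP6, AXIN, NKD, DACT and TCF or LEF names, together with FRZB, WIF1, NOTUM, RNF43, ZNRF3 and TNFRSF19. It found 58 of 21350 listed features, and 53 of them had enough counts to be tested. Mesenchymal cells of Lohmann Selected Leghorn embryos at embryonic day 4.5 were infected with an RCAS-BP(A) retrovirus before plating as dense droplets, and were cultured for 5 days. The virus carried the coding sequence OSR1-3F, OSR2-3F, EGR1-3F, KLF2-3F or KLF4-3F, or no insert (Control), so that all 6 groups carried the vector. There were 2 replicates a group, each from RNA of 6 pooled cultures. Neither the species of the inserts, nor the share of infected cells, nor whether replicates came from separate embryos is stated, and p-values therefore describe the spread among these libraries alone, which may be technical.

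WNT ligands are secreted lipid-modified proteins that bind frizzled (FZD) receptors. With the co-receptors LRP5 and LRP6 they stabilise beta-catenin, which joins TCF and LEF proteins on target genes, and other branches act on cell polarity and movement without beta-catenin. R-spondins (RSPO) bind LGR receptors and keep frizzled proteins on the surface by withdrawing the ubiquitin ligases ZNRF3 and RNF43. SFRP, FRZB, WIF1, DKK and NOTUM proteins act outside the cell against the ligand or the co-receptor, and AXIN2, NKD1, NOTUM, LEF1, TNFRSF19 and others are induced by the pathway in many tissues. In the limb bud, WNT signals from the ectoderm hold back cartilage formation in the outer mesenchyme, and later WNT genes mark joints and connective tissue around the cartilage.

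Total counts lay between 74139243 and 106079374 in the 10 factor libraries and were 51233721 and 59297870 in Control. Each overexpressed gene was far higher in its own libraries, from 5.66 (KLF2) to 9.34 (OSR1) on the log2 scale over Control. Both Control libraries were thus shallower than any other. Levels are given as CPM, a gene's count scaled to the size of its library, in replicate order, and are compared within a gene only, because CPM does not account for length. Fold changes are log2 values of the first group over the second with their standard error (SE), and a gene was called at an adjusted p under 0.05 over all 18979 genes tested. In such bulk extracts, fewer cells of a type and less RNA per cell cannot be told apart.

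Of the 53 tested members, 44 (83.0%) were called in the joint test of any difference among the 6 groups, against 60.6% of all genes. Of another list of WNT pathway genes, 45 of 51 tested were called. So was every tested cartilage, skeletal muscle, smooth muscle, loose connective tissue, endothelial, and neural and glial marker listed for comparison. Surface ectoderm markers had 6 of 10 called and macrophage markers 5 of 7. The highest mean lay with KLF4 for 16 of those 44 members and with OSR2 for 11, and the lowest mean lay in Control for 23 and with OSR2 for 8. The same tally was not made over all genes, so whether these counts are particular to the members was not tested. FZD6, LRP6, ZNRF3, NKD1, DACT1, WNT3A, WNT6, WNT7B and WNT10A were not called. Among these 9, FZD6, LRP6, ZNRF3 and NKD1 had highest and lowest group means within 1.18-fold of each other.

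**Figure D1:**
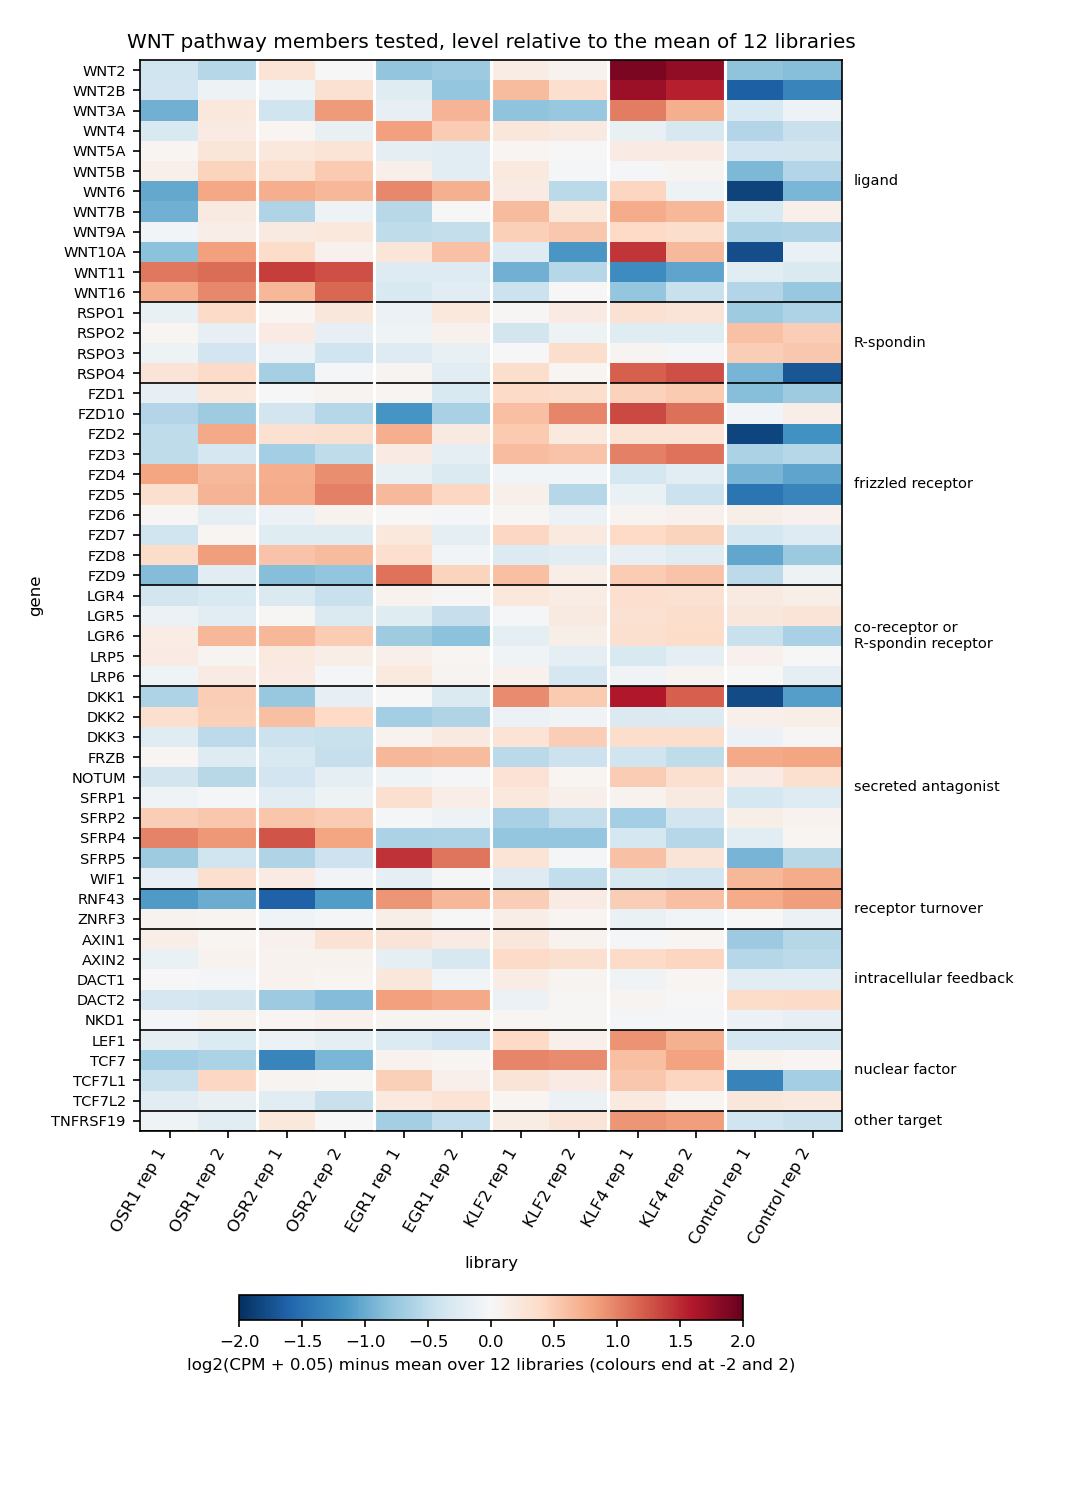
Level of each of the 53 tested members (rows, by role) in the 12 libraries (columns), as log2(CPM + 0.05) minus the member's mean over the 12 libraries; red is above and blue below that mean. WNT11, WNT16, FZD4 and SFRP4 are red in the 4 OSR libraries, WNT2, WNT2B, FZD3, FZD10 and LEF1 in the KLF4 libraries, and many rows are blue in Control.

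Compared with Control, members were higher more often than all genes were. OSR1 libraries had 24 of 53 tested members (45.3%) higher and 13 (24.5%) lower, against 28.4% and 22.7% of all genes tested. OSR2 libraries had 26 of 53 tested members (49.1%) higher and 12 (22.6%) lower, against 28.9% and 23.0% of all genes tested. EGR1 libraries had 22 of 53 tested members (41.5%) higher and 7 (13.2%) lower, against 24.6% and 20.5% of all genes tested. KLF2 libraries had 28 of 53 tested members (52.8%) higher and 7 (13.2%) lower, against 28.1% and 23.5% of all genes tested. KLF4 libraries had 28 of 53 tested members (52.8%) higher and 9 (17.0%) lower, against 28.7% and 25.5% of all genes tested. The median log2 fold change of the tested members was 0.26 with OSR1, 0.39 with OSR2, 0.22 with EGR1, 0.56 with KLF2 and 0.68 with KLF4, and that of all genes lay between -0.01 and 0.05. The 5 comparisons share the same 2 Control libraries, and the direction of members was not tested as a list. Fewer members were called higher with EGR1 and with KLF2 when Control replicate 1 was left out. Fewer were called in either direction with EGR1 when EGR1 replicate 1 was left out. The share of all genes called in those fits was not counted. Scaling by library totals alone gave 27 higher and 12 lower with KLF2, so that the share of higher calls was 69.2% in place of 80.0%.

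The ligands whose level set OSR libraries apart were WNT11 and WNT16. WNT11, a ligand known mainly for beta-catenin-independent control of cell movement, was the member with the widest called difference between OSR and KLF libraries. WNT11 had 200.3 and 209 CPM with OSR1, 251 and 234 with OSR2, 80.8 and 80.8 with EGR1, 49.3 and 64.9 with KLF2 and 40.4 and 46.5 with KLF4, against 82.7 and 78.6 CPM in Control. All 4 OSR libraries lay above the other 8, and all 4 KLF libraries below Control. WNT11 rose with OSR1 (1.34, SE 0.12, adjusted p = 1.4e-05) and OSR2 (1.59, SE 0.12, adjusted p = 3.5e-06), fell with KLF2 (-0.50, SE 0.12, adjusted p = 0.0047) and KLF4 (-0.89, SE 0.12, adjusted p = 0.00016). With EGR1 it stood at 0.00, SE 0.11, adjusted p = 0.99. WNT16 had 16.3 and 19.2 CPM with OSR1, 15.6 and 21.9 with OSR2, 7.97 and 8.56 with EGR1, 7.33 and 9.98 with KLF2 and 5.75 and 7.27 with KLF4, against 6.56 and 5.79 CPM in Control. WNT16, a ligand of joint and bone tissue, thus lay above every other library in the 4 OSR libraries, and rose with OSR1 (1.52, SE 0.20) and OSR2 (1.60, SE 0.20), with values of 0.42 with EGR1, 0.49 with KLF2 and 0.08 with KLF4 that were not called.

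WNT2B, a ligand known from the early limb field of the chick, and its relative WNT2 were highest with KLF4. WNT2B had 1.19 and 1.45 CPM with OSR1, 1.47 and 1.95 with OSR2, 1.31 and 0.895 with EGR1, 2.44 and 1.98 with KLF2 and 5.22 and 4.70 with KLF4, against 0.469 and 0.594 CPM in Control. Every factor library lay above both Control libraries, and the KLF4 libraries above all others. WNT2B rose by 3.21, SE 0.26, adjusted p = 7.8e-06 with KLF4 and by 2.05, SE 0.26, adjusted p = 0.00015 with KLF2, and by 1.31 with OSR1, 1.67 with OSR2 and 1.05 with EGR1. Its EGR1 call was lost without EGR1 replicate 1 (adjusted p = 0.0808) and without Control replicate 1 (0.0735). WNT2 had 29 and 34 counts in the KLF4 libraries, 1 and 1 in Control and at most 9 in any other library. Pooled over replicates and scaled by library size, the KLF4 counts were 21.3 times those of Control (exact 95% interval 5.67 to 180.1, counting error only), and WNT2 was called in that comparison (adjusted p = 7.2e-05). The same ratio was 4.76 (1.11 to 42.9) with OSR2 and 4.56 (1.06 to 41.1) with KLF2, whose calls were lost under DESeq2, without either Control library, without OSR2 replicate 1 for OSR2 and without either KLF2 library for KLF2 (adjusted p between 0.0529 and 0.171).

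WNT4, WNT9A, WNT5A and WNT5B, ligands of joint regions and of the mesenchyme around growing cartilage, moved by smaller amounts. WNT4 had 5.46 and 7.57 CPM with OSR1, 6.92 and 6.10 with OSR2, 11.9 and 9.61 with EGR1, 7.85 and 7.65 with KLF2 and 6.06 and 5.35 with KLF4, against 4.48 and 4.95 CPM in Control. The EGR1 libraries held the highest values, and WNT4 rose with EGR1 (1.19, SE 0.18, adjusted p = 0.00072) and KLF2 (0.71, SE 0.17, adjusted p = 0.0063, 0.0527 without Control replicate 1). With OSR1 and OSR2 it was at 0.46 and 0.46, calls that were lost in 13 and 12 of the 19 alternatives, among them leaving out either Control library (adjusted p between 0.0511 and 0.359 where lost). WNT9A had 33.3 and 37.7 CPM with OSR1, 39.1 and 39.8 with OSR2, 24.3 and 24.8 with EGR1, 48.1 and 50.1 with KLF2 and 45.7 and 44.0 with KLF4, against 22.4 and 22.7 CPM in Control. WNT9A rose with KLF2 (1.12, SE 0.08), KLF4 (0.99, SE 0.08), OSR2 (0.81, SE 0.08) and OSR1 (0.65, SE 0.08), and with EGR1 (0.12) it was not called. WNT5B had 139 and 177 CPM with OSR1, 163 and 187 with OSR2, 139 and 112 with EGR1, 149 and 127 with KLF2 and 127 and 135 with KLF4, against 69.8 and 86.3 CPM in Control. WNT5B had its lowest values in Control and rose with OSR1 (1.02, SE 0.16), OSR2 (1.16, SE 0.16), EGR1 (0.69, SE 0.16), KLF2 (0.82, SE 0.16) and KLF4 (0.75, SE 0.16). The EGR1 call was lost without EGR1 replicate 1 (adjusted p = 0.0604) and without Control replicate 1 (0.0588). WNT5A, which drives outgrowth of the distal limb in the mouse, had means of 111 ± 10.7 CPM with OSR1, 119.7 ± 3.60 with OSR2, 87.6 ± 0.840 with EGR1, 102 ± 2.51 with KLF2 and 113 ± 0.497 with KLF4, against 77.5 ± 0.956 CPM in Control (SD, n = 2 each), and was called higher in all but EGR1.

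Ligands known from the limb ectoderm had few counts. WNT3A, WNT6, WNT7B and WNT10A had at most 23, 44, 73 and 43 counts in any library. WNT3, WNT7A, WNT8A, WNT8B and WNT9B had at most 7 counts and were not tested. WNT6 and WNT10A differed widely between replicates. WNT6 had 7 and 36 counts with OSR1, 34 and 29 with OSR2, 44 and 32 with EGR1, 22 and 11 with KLF2, 21 and 17 with KLF4, against 1 and 5 in Control. Its calls with OSR2 (2.71, SE 0.83, adjusted p = 0.02) and EGR1 (2.89, SE 0.82, adjusted p = 0.017) were lost without Control replicate 1 (adjusted p = 0.127 and 0.113), without EGR1 replicate 1 for EGR1 (0.073), and without OSR2 replicate 1 or 2 for OSR2 (0.0602 and 0.0608). They stood at 4.13 and 4.31 without Control replicate 2. WNT10A was called with KLF4 alone (2.20, SE 0.83, adjusted p = 0.048), a call that was lost under 10 of the 19 alternatives, among them leaving out either KLF4 library or Control replicate 1 (adjusted p between 0.0506 and 0.22 where lost). The change was 1.42 without Control replicate 1 and 4.47 without Control replicate 2.

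The R-spondins fell into a pair that was lower and a pair that was higher than in Control. RSPO2, which supports limb outgrowth, had means of 31.5 ± 3.13 CPM with OSR1, 32.9 ± 5.10 with OSR2, 32.8 ± 2.68 with EGR1, 27.8 ± 3.59 with KLF2 and 27.7 ± 0.0504 with KLF4, against 47.7 ± 2.33 CPM in Control. Its change was -0.60, SE 0.13 with OSR1, -0.53, SE 0.13 with OSR2, -0.54, SE 0.13 with EGR1, -0.78, SE 0.13 with KLF2 and -0.78, SE 0.13 with KLF4, all called. The EGR1 call was lost without EGR1 replicate 1 (adjusted p = 0.0666) or Control replicate 1 (0.0542), and the OSR2 call without OSR2 replicate 2 (0.0624). RSPO3, its close relative, had means of 41.9 ± 5.53, 41.4 ± 5.82, 42.9 ± 2.09, 56.2 ± 9.49 and 49.9 ± 1.71 CPM with OSR1, OSR2, EGR1, KLF2 and KLF4, against 70.6 ± 1.16 CPM in Control. It fell with every factor except KLF2, where the change of -0.33 was not called, and the KLF4 call was lost without KLF4 replicate 2 (adjusted p = 0.0629). RSPO1 and RSPO4 were low. RSPO1 was called higher with each factor, from 0.74, SE 0.21 with EGR1 to 0.97, SE 0.21 with KLF4. Without Control replicate 1 it was called with KLF4 alone (adjusted p = 0.0277, and 0.0572 with OSR1, 0.0574 with OSR2, 0.094 with EGR1 and 0.0646 with KLF2). It was also not called without OSR1 replicate 2 with OSR1 (0.0736), OSR2 replicate 2 with OSR2 (0.0554), and EGR1 replicate 2 (0.1) or Control replicate 2 (0.0581) with EGR1. RSPO4 had 61 and 83 counts with KLF4 against 8 and 4 in Control (2.99, SE 0.38, adjusted p = 0.00014), a change that was 3.67 without Control replicate 1 and 2.50 without Control replicate 2. In the other groups RSPO4 stood at 1.99 with OSR1, 1.24 with OSR2, 1.56 with EGR1 and 1.86 with KLF2, all called, and at 2.66, 1.92, 2.23 and 2.54 in the same order without Control replicate 1. The OSR2 call was lost under DESeq2 (adjusted p = 0.104), without OSR2 replicate 2 (0.193) and without Control replicate 2 (0.239), and the EGR1 call without EGR1 replicate 1 (0.0711) or Control replicate 2 (0.105).

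Among the frizzled receptors, FZD4 was highest with the OSR factors, FZD5 with OSR2, EGR1 and OSR1, and FZD3 and FZD10 with the KLF factors, while FZD1, FZD2 and FZD8 were lower in Control than in any factor group. FZD4 had 170.2 and 154 CPM with OSR1, 163 and 187 with OSR2, 88.1 and 80.0 with EGR1, 94.4 and 94.9 with KLF2 and 76.9 and 84.2 with KLF4, against 51.6 and 47.4 CPM in Control. FZD4, which also binds the non-WNT ligand norrin, thus formed 3 levels, with the OSR libraries above the EGR1 and KLF libraries and those above Control. It rose with OSR1 (1.71, SE 0.09, adjusted p = 1.1e-06), OSR2 (1.82, SE 0.10, adjusted p = 4.5e-07), KLF2 (0.94, SE 0.09, adjusted p = 4.6e-05), EGR1 (0.76, SE 0.09, adjusted p = 0.0003) and KLF4 (0.70, SE 0.09, adjusted p = 0.00018). FZD5 had 3.15 and 4.08 CPM with OSR1, 4.26 and 5.11 with OSR2, 3.98 and 3.38 with EGR1, 2.69 and 1.68 with KLF2 and 2.30 and 1.85 with KLF4, against 0.882 and 0.974 CPM in Control. All 10 factor libraries lay above Control for FZD5, which rose by 2.33 with OSR2, 1.98 with EGR1, 1.96 with OSR1, 1.23 with KLF2 and 1.15 with KLF4 (SE 0.26 each).

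FZD3 had 4.95 and 5.58 CPM with OSR1, 4.35 and 4.95 with OSR2, 7.85 and 6.11 with EGR1, 10.8 and 10.4 with KLF2 and 14.3 and 14.9 with KLF4, against 4.501 and 4.74 CPM in Control. FZD3, a receptor known for its part in axon guidance and cell polarity, was highest in the KLF4 libraries, next in the KLF2 libraries, and about level in the OSR and Control libraries. It rose with KLF4 (1.66, SE 0.14, adjusted p = 1.3e-05) and KLF2 (1.20, SE 0.14, adjusted p = 0.00012) and with EGR1 (0.60, SE 0.14, adjusted p = 0.0071), a call lost without EGR1 replicate 1 (adjusted p = 0.0741) or Control replicate 1 (0.0544). FZD10 had 0.828 and 0.758 CPM with OSR1, 0.983 and 0.839 with OSR2, 0.535 and 0.794 with EGR1, 1.97 and 2.55 with KLF2 and 3.25 and 2.80 with KLF4, against 1.22 and 1.40 CPM in Control. FZD10 was above Control in the 4 KLF libraries and below it in the 6 OSR and EGR1 libraries. It rose with KLF4 (1.20, SE 0.22, adjusted p = 0.0011) and KLF2 (0.78, SE 0.22, adjusted p = 0.012) and fell with EGR1 (-0.99, SE 0.23, adjusted p = 0.0065) and OSR1 (-0.73, SE 0.23, adjusted p = 0.022). Of these, the KLF2 call was lost without KLF2 replicate 2 (adjusted p = 0.0761) or Control replicate 1 (0.0871), the EGR1 call without EGR1 replicate 1 (0.0674), and the OSR1 call without OSR1 replicate 2 (0.0972) or either Control library (0.0524 and 0.115).

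FZD1 had 213 and 278 CPM with OSR1, 238 and 247 with OSR2, 247 and 194 with EGR1, 312 and 304 with KLF2 and 329 and 344 with KLF4, against 133 and 146 CPM in Control. FZD8 had 71.9 and 99.4 CPM with OSR1, 82.2 and 86.7 with OSR2, 70.5 and 53.4 with EGR1, 45.9 and 47.5 with KLF2 and 49.5 and 47.1 with KLF4, against 26.9 and 33.3 CPM in Control. Control was lowest for both, and FZD1 leaned to the KLF and FZD8 to the OSR libraries. FZD1 rose by 1.28, SE 0.13 with KLF4, 1.15, SE 0.13 with KLF2, 0.82, SE 0.13 with OSR1, 0.80, SE 0.13 with OSR2 and 0.66, SE 0.13 with EGR1. FZD8 rose by 1.51, SE 0.17 with OSR1, 1.49, SE 0.17 with OSR2, 1.04, SE 0.17 with EGR1, 0.68, SE 0.17 with KLF4 and 0.63, SE 0.17 with KLF2. The KLF2 and KLF4 calls of FZD8 were lost without Control replicate 1 (adjusted p = 0.0934 and 0.0649), and the KLF2 call also without KLF2 replicate 1 (0.0658) or 2 (0.0551).

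FZD2 had 56.9 and 137 CPM with OSR1, 99.96 and 101 with OSR2, 134 and 91.2 with EGR1, 117 and 92.1 with KLF2 and 97.2 and 97.6 with KLF4, against 22.6 and 34.9 CPM in Control. FZD9 had 49.3 and 77.1 CPM with OSR1, 49.5 and 52.1 with OSR2, 191 and 123 with EGR1, 136 and 98.1 with KLF2 and 127 and 133 with KLF4, against 62.2 and 83.9 CPM in Control. Replicates of both genes differed widely, and for FZD2 the OSR1 libraries differed from each other more than the OSR1, OSR2, EGR1, KLF2 and KLF4 means did. For FZD2 the log2 ratio of replicate 2 over replicate 1 was 1.27 with OSR1, -0.56 with EGR1 and 0.63 in Control. For FZD9 it was 0.65, -0.64 and 0.43. Its signs were the same for FZD1, FZD8, TCF7L1 and WNT5B. They were also the same for FZD3, FZD5, FZD7, WNT2B, WNT4, WNT5A, WNT6, DKK1, SFRP1, SFRP5, AXIN2 and RNF43. For WNT2B the ratio was 0.29, -0.55 and 0.34, and for DKK1 1.13, -0.29 and 0.72. All these members thus moved in the same direction between replicates of those groups. For FZD4 the ratio was -0.14, -0.14 and -0.12. The cause was not tested. FZD2 was called higher with each factor, from 1.75, SE 0.40, adjusted p = 0.0074 with OSR1 to 1.97, SE 0.40, adjusted p = 0.0054 with EGR1. Without Control replicate 1, the adjusted p was 0.0646 with OSR1, 0.0555 with OSR2, 0.0508 with EGR1, 0.0504 with KLF2 and 0.0552 with KLF4, and without OSR1 replicate 2 the OSR1 change was 0.99. FZD9 was called higher with EGR1 (1.10, SE 0.28, adjusted p = 0.014) and KLF4 (0.83, SE 0.28, adjusted p = 0.035), and both calls were lost without Control replicate 1 (adjusted p = 0.103 and 0.193). The EGR1 call was also lost without EGR1 replicate 1 (0.105), and the KLF4 call without KLF4 replicate 1 (0.0907) or 2 (0.114). FZD7 rose with KLF4 (0.73, SE 0.16) and KLF2 (0.61, SE 0.16), the KLF2 call being lost without KLF2 replicate 1 (adjusted p = 0.101) or Control replicate 1 (0.0641), and FZD6 stood between -0.17 and -0.03 with no call.

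**Figure D2:**
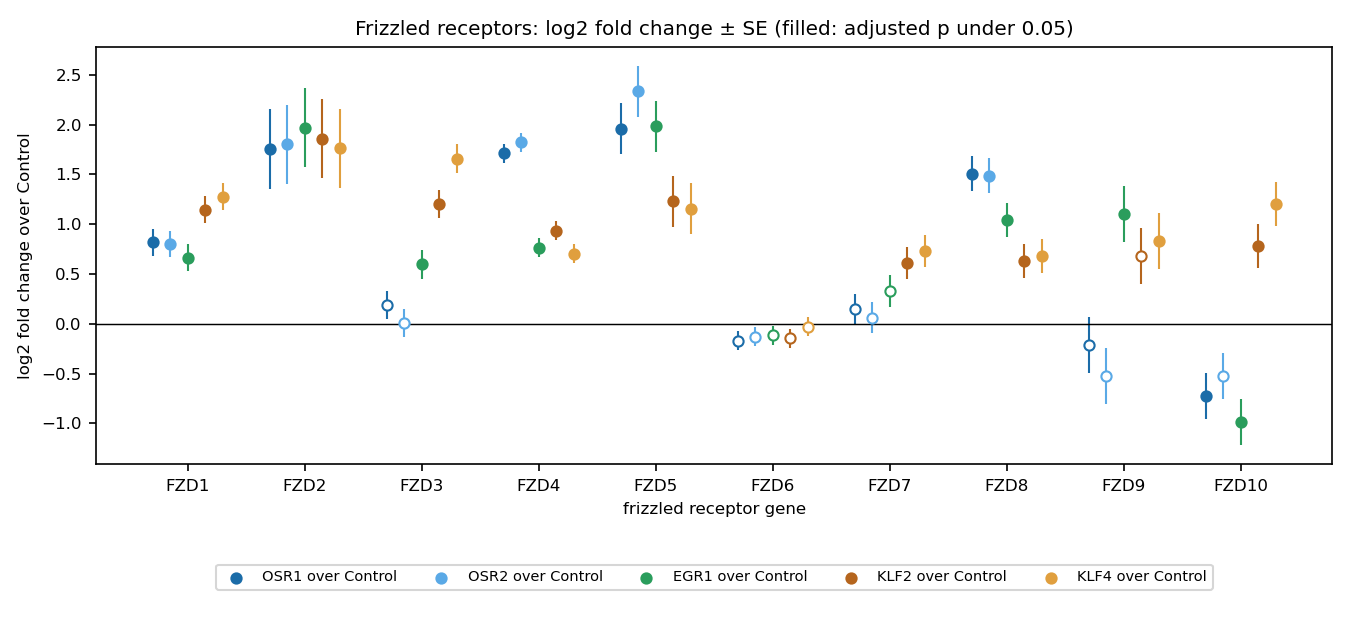
log2 fold change over Control of the 10 frizzled genes (horizontal axis) with each factor, as points with SE bars; filled points had an adjusted p under 0.05. FZD4 is highest with OSR1 and OSR2, FZD5 with OSR2, FZD3 and FZD10 with KLF4, and FZD6 lies near 0 with every factor.

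The co-receptor genes LRP5 and LRP6 stayed within -0.28 and 0.22 of Control. LRP5 was called with KLF4 only (-0.28, SE 0.08, adjusted p = 0.011), a call lost without KLF4 replicate 1 (adjusted p = 0.106) or Control replicate 1 (0.087), and LRP6 was not called with any factor. Among the R-spondin receptors, LGR4 had means of 124 ± 3.08 CPM with OSR1 and 122 ± 9.78 CPM with OSR2, 162 ± 3.92 with EGR1, 178 ± 5.73 with KLF2 and 195 ± 3.29 with KLF4, against 174 ± 5.73 CPM in Control. LGR4 fell with OSR1 (-0.49, SE 0.07) and OSR2 (-0.52, SE 0.07) and was not called with the other factors. LGR5, a WNT target and stem cell marker in mammals, fell with EGR1 (-0.60, SE 0.11), OSR1 (-0.41, SE 0.11) and OSR2 (-0.37, SE 0.11). Its OSR1 call was lost without OSR1 replicate 2 (adjusted p = 0.0697) or Control replicate 2 (0.0596), and its OSR2 call without OSR2 replicate 2 (0.174) or either Control library (0.0632 and 0.0835). LGR6 was low, with at most 126 counts, and rose with OSR2 (1.21, SE 0.23), OSR1 (1.04, SE 0.24) and KLF4 (0.94, SE 0.24), the KLF4 call being lost without Control replicate 2 (adjusted p = 0.0529).

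All 10 secreted antagonists were called in the joint test, against 60.6% of all genes, as was every tested marker of most comparison lists. The antagonists did not move together. SFRP4 had 20.8 and 19.1 CPM with OSR1, 25.0 and 18.0 with OSR2, 6.74 and 6.79 with EGR1, 6.07 and 6.11 with KLF2 and 8.17 and 6.98 with KLF4, against 8.87 and 10.7 CPM in Control. The 4 OSR libraries were the highest for SFRP4, a WNT-binding protein of connective tissue, which rose with OSR2 (1.14, SE 0.16, adjusted p = 0.00026) and OSR1 (1.02, SE 0.16, adjusted p = 0.00055) and fell with KLF2 (-0.69, SE 0.16, adjusted p = 0.0051) and EGR1 (-0.53, SE 0.16, adjusted p = 0.021). The EGR1 call was lost without EGR1 replicate 1 (adjusted p = 0.0963) or 2 (0.0696) or Control replicate 2 (0.147). SFRP2 had 883 and 917 CPM with OSR1, 923 and 899 with OSR2, 620.1 and 587 with EGR1, 400.5 and 455 with KLF2 and 395 and 487 with KLF4, against 682 and 664 CPM in Control. SFRP2 was also highest in the 4 OSR libraries, rising with OSR1 (0.42, SE 0.10) and OSR2 (0.44, SE 0.10), falling with KLF2 (-0.65, SE 0.10) and KLF4 (-0.61, SE 0.10), and not called with EGR1 (-0.16). SFRP5 had 0.838 and 1.06 CPM with OSR1, 0.909 and 1.04 with OSR2, 3.93 and 3.02 with EGR1, 1.70 and 1.37 with KLF2 and 2.14 and 1.69 with KLF4, against 0.713 and 0.941 CPM in Control. SFRP5 was highest in the EGR1 libraries, and rose with EGR1 (2.07, SE 0.23, adjusted p = 0.00022), KLF4 (1.20, SE 0.24, adjusted p = 0.0018) and KLF2 (0.89, SE 0.24, adjusted p = 0.0099), the KLF2 call being lost without KLF2 replicate 1 (adjusted p = 0.0776) or Control replicate 1 (0.0873). SFRP1 rose with EGR1 (0.53, SE 0.09), KLF2 (0.45, SE 0.09) and KLF4 (0.43, SE 0.09), and its call with OSR1 (0.26) was lost without either OSR1 or either Control library (adjusted p between 0.0502 and 0.167).

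FRZB had 563 and 459.6 CPM with OSR1, 443 and 397 with OSR2, 864 and 852 with EGR1, 375 and 405 with KLF2 and 416 and 386 with KLF4, against 924 and 945 CPM in Control. FRZB, a secreted frizzled-related protein of early cartilage, was higher in the EGR1 and Control libraries than in the other 8. It fell with KLF2 (-1.26, SE 0.10, adjusted p = 1.7e-05), KLF4 (-1.22, SE 0.10, adjusted p = 1.1e-05), OSR2 (-1.15, SE 0.10, adjusted p = 1.2e-05) and OSR1 (-0.87, SE 0.10, adjusted p = 9.4e-05), and stood at -0.12, SE 0.10, adjusted p = 0.34 with EGR1. The summed level of the 10 cartilage markers listed for comparison, SOX9, SOX5, SOX6, COL2A1, COL9A1, COL11A1, ACAN, MATN1, HAPLN1 and COMP, was 4662 and 5548 CPM with OSR1, 3406 and 3585 with OSR2, 15907 and 19229 with EGR1, 11437 and 13661 with KLF2 and 11859.6 and 13402 with KLF4, against 16294 and 17417 CPM in Control (lower and higher library). All 10 were called lower with OSR1 and with OSR2, 8 with KLF2, 7 with KLF4, and 2 lower and 1 higher with EGR1. Of all genes, 22.7%, 23.0%, 23.5% and 25.5% were called lower with OSR1, OSR2, KLF2 and KLF4. With EGR1, 20.5% of all genes were called lower and 24.6% higher, so the 20% of markers lower with EGR1 was near that share. None of the 10 markers was at 0 in any library. Their sum was lowest with OSR2 and OSR1, as were RNF43, DACT2 and some other members given below. FRZB instead had means of 390 CPM with KLF2 and 401 with KLF4, against 511 with OSR1 and 420 with OSR2. The part of these markers in the results of FRZB or of other members was not tested. WIF1, another ligand-binding antagonist, had means of 7.05 ± 1.69 CPM with OSR1, 6.89 ± 0.759 with OSR2, 6.13 ± 0.483 with EGR1, 5.07 ± 0.592 with KLF2 and 5.17 ± 0.132 with KLF4, against 10.8 ± 0.404 CPM in Control. It fell with each factor, from -0.62, SE 0.17 with OSR1 to -1.09, SE 0.17 with KLF2, all called. The OSR1 call was lost without OSR1 replicate 1 (adjusted p = 0.0761) or Control replicate 2 (0.0571), and the OSR2 call without OSR2 replicate 2 (0.0767).

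DKK2 had 44.1 and 48.4 CPM with OSR1, 53.1 and 46.2 with OSR2, 21.8 and 23.1 with EGR1, 32.1 and 33.3 with KLF2 and 28.6 and 28.8 with KLF4, against 37.5 and 38.3 CPM in Control. DKK1 had 2.01 and 4.39 CPM with OSR1, 1.82 and 2.76 with OSR2, 3.10 and 2.54 with EGR1, 6.01 and 4.49 with KLF2 and 9.51 and 7.22 with KLF4, against 0.863 and 1.42 CPM in Control. DKK proteins bind the LRP co-receptors, and the 2 genes had different orders, with DKK2 highest in OSR and lowest in EGR1 libraries and DKK1 highest with KLF4 and lowest in Control libraries. DKK2 fell with EGR1 (-0.76, SE 0.09, adjusted p = 0.00026) and KLF4 (-0.40, SE 0.09, adjusted p = 0.0032) and rose with OSR2 (0.39, SE 0.09, adjusted p = 0.0041) and OSR1 (0.29, SE 0.09, adjusted p = 0.019). The OSR1 call was lost without OSR1 replicate 2 (adjusted p = 0.125) or either Control library (0.1 and 0.0645). DKK1, itself a WNT target in many tissues, rose with KLF4 (2.86, SE 0.42, adjusted p = 0.0006), KLF2 (2.19, SE 0.42, adjusted p = 0.0024), OSR1 (1.48, SE 0.41, adjusted p = 0.016) and EGR1 (1.30, SE 0.41, adjusted p = 0.031). Without Control replicate 1 the adjusted p was 0.111 with OSR1 and 0.178 with EGR1. The OSR1 value was 0.81 (adjusted p = 0.0947) without OSR1 replicate 2, and the EGR1 call was lost without EGR1 replicate 1 (0.139) or 2 (0.0566).

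DKK3, a divergent member of the DKK family, had means of 204 ± 27.7 CPM with OSR1, 197 ± 1.49 with OSR2, 288 ± 15.5 with EGR1, 346 ± 36.3 with KLF2 and 339.8 ± 0.0422 with KLF4, against 258 ± 17.8 CPM in Control. It was called lower with OSR1 (-0.33) and OSR2 (-0.39) and higher with KLF2 (0.42) and KLF4 (0.40), and each of the 4 calls was lost without 1 of the Control libraries (adjusted p = 0.132 and 0.0753 for OSR1 and OSR2 without replicate 2, 0.0618 and 0.0718 for KLF2 and KLF4 without replicate 1). The OSR1 call was also lost without OSR1 replicate 2 (0.171) and the OSR2 call without OSR2 replicate 2 (0.0581). NOTUM, an enzyme that strips the lipid from WNT ligands, fell with OSR1 (-0.72, SE 0.15) and OSR2 (-0.53, SE 0.15), where the OSR2 call was lost without OSR2 replicate 1 (adjusted p = 0.0832) or Control replicate 2 (0.0817). With EGR1, KLF2 and KLF4 it stood at -0.32, -0.08 and 0.17, not called.

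**Figure D3:**
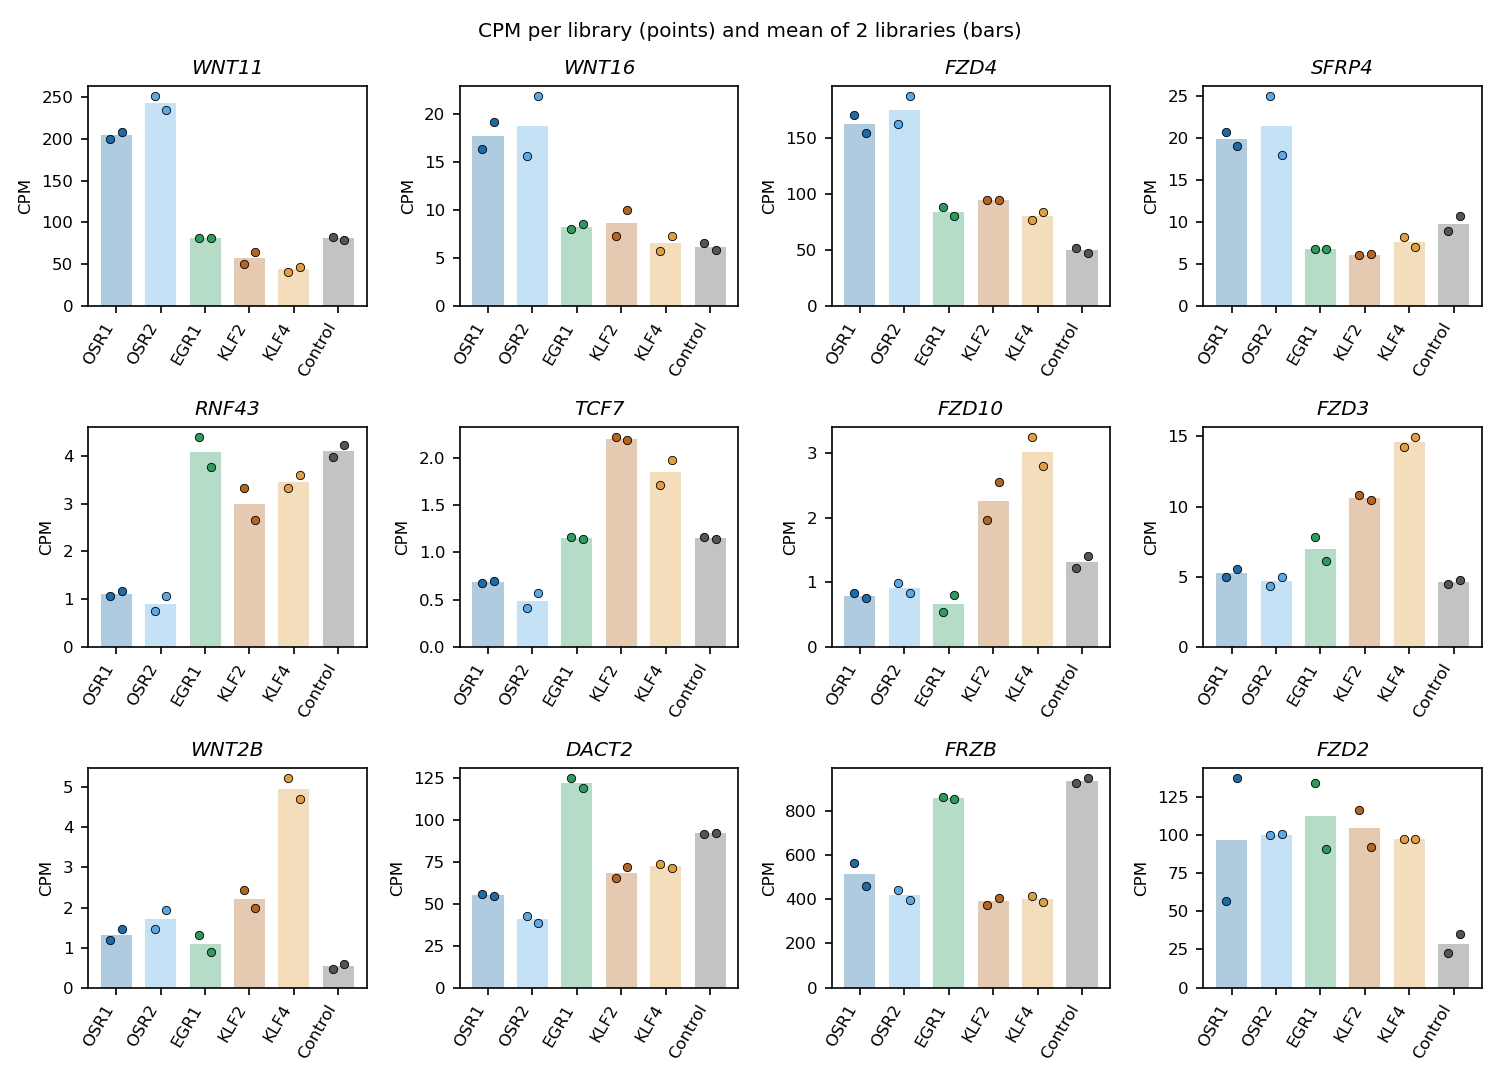
CPM of 12 members in each library (points) with the mean of the 2 libraries (bars), by group on the horizontal axis. WNT11, WNT16, FZD4 and SFRP4 are highest with OSR1 and OSR2, where RNF43 and TCF7 are lowest. FZD10, FZD3 and WNT2B are highest with KLF4, DACT2 with EGR1, FRZB is high with EGR1 and in Control, and FZD2 differs between the 2 OSR1 libraries.

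Of the 2 ubiquitin ligases that remove frizzled receptors from the cell surface, RNF43 differed between groups and ZNRF3 was not called. RNF43 had 1.06 and 1.16 CPM with OSR1, 0.740 and 1.06 with OSR2, 4.40 and 3.77 with EGR1, 3.33 and 2.65 with KLF2 and 3.33 and 3.60 with KLF4, against 3.98 and 4.24 CPM in Control. The 4 OSR libraries held the 4 lowest values. RNF43 fell with OSR2 (-2.19, SE 0.20, adjusted p = 1.5e-05) and OSR1 (-1.89, SE 0.20, adjusted p = 4.5e-05), and stood at -0.01 with EGR1, -0.46 with KLF2 and -0.25 with KLF4, none of them called. ZNRF3 had means of 21.9 ± 0.262 CPM with OSR1, 20.3 ± 0.508 with OSR2, 21.9 ± 1.09 with EGR1, 22.2 ± 0.947 with KLF2 and 19.6 ± 0.648 with KLF4, against 20.1 ± 1.13 CPM in Control. Both RNF43 calls held under all 19 alternatives.

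Among the 5 feedback genes inside the cell, DACT2 and AXIN2 had the widest ratios of highest to lowest group mean (3.00 and 1.94), with AXIN1 at 1.81. AXIN2 had 27.8 and 32.1 CPM with OSR1, 31.96 and 32.01 with OSR2, 26.9 and 24.3 with EGR1, 40.0 and 38.2 with KLF2 and 39.9 and 41.1 with KLF4, against 20.5 and 21.2 CPM in Control. AXIN2, a scaffold of the complex that destroys beta-catenin and a widely used readout of the pathway, was lowest in Control and highest in the KLF libraries. It rose with KLF4 (0.96, SE 0.09, adjusted p = 2.4e-05), KLF2 (0.90, SE 0.09, adjusted p = 5.1e-05), OSR2 (0.62, SE 0.09, adjusted p = 0.00036) and OSR1 (0.52, SE 0.09, adjusted p = 0.0011), and with EGR1 (0.30, SE 0.09, adjusted p = 0.023), where the call was lost without EGR1 replicate 1 (adjusted p = 0.151) or either Control library (0.12 and 0.0659). Its paralog AXIN1, which is not known as a target, rose by 0.73 with OSR1, 0.84 with OSR2, 0.86 with EGR1, 0.79 with KLF2 and 0.64 with KLF4 (SE 0.10 each). DACT2 had 55.7 and 54.7 CPM with OSR1, 42.5 and 38.8 with OSR2, 125 and 119 with EGR1, 65.4 and 71.8 with KLF2 and 73.5 and 71.2 with KLF4, against 91.5 and 92.4 CPM in Control. DACT2, which binds Dishevelled, was above Control in the EGR1 libraries and below it in the other 8. It rose with EGR1 (0.41, SE 0.07, adjusted p = 0.0018) and fell with OSR2 (-1.18, SE 0.07, adjusted p = 1.4e-06), OSR1 (-0.74, SE 0.07, adjusted p = 3.4e-05), KLF2 (-0.42, SE 0.07, adjusted p = 0.00096) and KLF4 (-0.35, SE 0.07, adjusted p = 0.0026). The 2 other Dishevelled-binding genes, DACT1 and NKD1, stood at most 0.31 and 0.21 above Control. Their calls, each with OSR2, EGR1 and KLF2, were all lost without either Control library (adjusted p between 0.0655 and 0.183).

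TNFRSF19, a receptor of the tumour necrosis factor family that WNT signals induce in mammalian cells, was highest with KLF4. TNFRSF19 had 83.3 and 76.2 CPM with OSR1, 103 and 87.9 with OSR2, 55.6 and 63.3 with EGR1, 98.0 and 107 with KLF2 and 165 and 159 with KLF4, against 67.2 and 65.02 CPM in Control. The KLF4 libraries lay above all others and the EGR1 libraries below Control. TNFRSF19 rose with KLF4 (1.29, SE 0.10, adjusted p = 5.3e-06), KLF2 (0.63, SE 0.10, adjusted p = 0.00046) and OSR2 (0.53, SE 0.10, adjusted p = 0.0011), while EGR1 (-0.15) was not called. With OSR1 (0.27, SE 0.10, adjusted p = 0.035) the call was lost in DESeq2, with library totals alone, and without OSR1 replicate 1, either KLF4 library or either Control library (adjusted p between 0.0504 and 0.163).

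The nuclear factors LEF1 and TCF7, which mostly activate WNT targets, were highest in the KLF libraries. LEF1 had 8.55 and 8.14 CPM with OSR1, 9.07 and 8.63 with OSR2, 8.08 and 7.49 with EGR1, 13.02 and 10.5 with KLF2 and 18.4 and 16.2 with KLF4, against 7.65 and 7.74 CPM in Control. TCF7 had 0.673 and 0.696 CPM with OSR1, 0.412 and 0.567 with OSR2, 1.17 and 1.14 with EGR1, 2.22 and 2.19 with KLF2 and 1.72 and 1.99 with KLF4, against 1.16 and 1.14 CPM in Control. For LEF1 the KLF4 libraries were the highest and the KLF2 libraries next, and for TCF7 the KLF libraries lay above Control and the OSR libraries below it. LEF1 rose with KLF4 (1.17, SE 0.13, adjusted p = 5.4e-05) and KLF2 (0.61, SE 0.13, adjusted p = 0.0026). TCF7 rose with KLF2 (0.94, SE 0.18, adjusted p = 0.0016) and KLF4 (0.69, SE 0.18, adjusted p = 0.0082), the KLF4 call being lost without KLF4 replicate 2 (adjusted p = 0.0672), and fell with OSR2 (-1.24, SE 0.19, adjusted p = 0.00051) and OSR1 (-0.75, SE 0.19, adjusted p = 0.0077). TCF7L1 had 14.3 and 26.0 CPM with OSR1, 20.3 and 19.8 with OSR2, 27.1 and 20.9 with EGR1, 23.3 and 21.9 with KLF2 and 28.4 and 26.3 with KLF4, against 7.65 and 12.2 CPM in Control. TCF7L1, more often a repressor, was lowest in Control. Its log2 ratio of replicate 2 over replicate 1 was 0.86 with OSR1 and 0.67 in Control. TCF7L1 was called higher with OSR1 (1.02), OSR2 (1.01), EGR1 (1.27), KLF2 (1.19) and KLF4 (1.46, SE 0.29, adjusted p = 0.0033). The call was lost without Control replicate 1 with OSR1 (adjusted p = 0.116), OSR2 (0.115), EGR1 (0.058) and KLF2 (0.0632), and without OSR1 replicate 2 (0.0989), OSR2 replicate 1 (0.0631) or 2 (0.0656), EGR1 replicate 1 (0.0612) and KLF2 replicate 1 (0.0551) in the comparison of that factor. It held under all 19 alternatives with KLF4. TCF7L2 fell with OSR2 (-0.53, SE 0.09) and OSR1 (-0.39, SE 0.09) and was not called with EGR1, KLF2 or KLF4.

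OSR and KLF libraries were then compared without Control, as the mean of OSR1 and OSR2 over the mean of KLF2 and KLF4. The OSR libraries had 11 of 53 tested members (20.8%) higher and 25 (47.2%) lower, against 17.4% and 15.6% of all genes tested. Higher with OSR were the ligands WNT11 (2.16, SE 0.08, adjusted p = 4.1e-08) and WNT16 (1.28, SE 0.14, adjusted p = 4.5e-05), the antagonists SFRP4 (1.61, SE 0.11, adjusted p = 1.8e-06), SFRP2 (1.06, SE 0.07, adjusted p = 1.5e-06) and DKK2 (0.65, SE 0.06, adjusted p = 1.6e-05), and the receptors FZD5 (0.95, SE 0.17, adjusted p = 0.0012), FZD4 (0.95, SE 0.07, adjusted p = 1.5e-06) and FZD8 (0.84, SE 0.12, adjusted p = 0.00049). Lower with OSR were TCF7 (-1.80, SE 0.13, adjusted p = 2e-06), RNF43 (-1.69, SE 0.14, adjusted p = 5.6e-06), the receptors FZD10 (-1.62), FZD3 (-1.33) and FZD9 (-1.12), the antagonists DKK1 (-1.29), SFRP5 (-0.83), DKK3 (-0.77) and NOTUM (-0.67), the ligands WNT2B (-1.14) and WNT9A (-0.33), and LEF1 (-0.73), DACT2 (-0.57), TNFRSF19 (-0.56) and AXIN2 (-0.36). Each of those 23 calls held under all 19 alternatives. Also called higher were WIF1 (0.44), LRP5 (0.32) and FRZB (0.23). Also called lower were WNT2 (-1.63), WNT7B (-0.96), RSPO4 (-0.81), LGR4 (-0.60) and FZD7 (-0.57). The remaining lower calls were FZD1 (-0.40), LGR5 (-0.35), RSPO3 (-0.35), TCF7L2 (-0.30) and SFRP1 (-0.24). Of all 36 calls, 6 were lost under 1 or more alternatives, all of them outside the 23 named first. WNT7B, with at most 73 counts in any library, was not called in the joint test. For TNFRSF19 the OSR and KLF libraries overlapped, with means of 95.5 CPM with OSR2, 102 with KLF2 and 162 with KLF4. They also overlapped for WNT2, RSPO4, LGR5 and FRZB. WNT2 had means of 0.0830 CPM with OSR2, 0.0800 with KLF2 and 0.377 with KLF4. RSPO4 had 0.425 CPM with OSR1, 0.389 with KLF2 and 0.853 with KLF4. WNT2 and RSPO4 had at most 34 and 83 counts in any library. WNT2B (2.21 CPM with KLF2, 4.96 with KLF4) and LEF1 (11.8 and 17.3) also had their higher KLF mean with KLF4. By role, 5 of 10 antagonists were higher and 5 lower, 3 of 10 frizzled genes higher and 5 lower, and 3 of 4 nuclear factors lower. In this comparison all 10 cartilage markers, 5 of 10 surface ectoderm markers and 4 of 7 neural and glial markers were lower, with 1 surface ectoderm and 1 neural and glial marker higher. Higher were 4 of 5 smooth muscle and 6 of 9 tested skeletal muscle markers, with none lower. Endothelial markers split into 3 higher and 3 lower of 8, loose connective tissue markers into 4 and 3 of 10, and macrophage markers into 3 and 1 of 7. The part of these lists in the members' values was not tested.

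**Figure D4:**
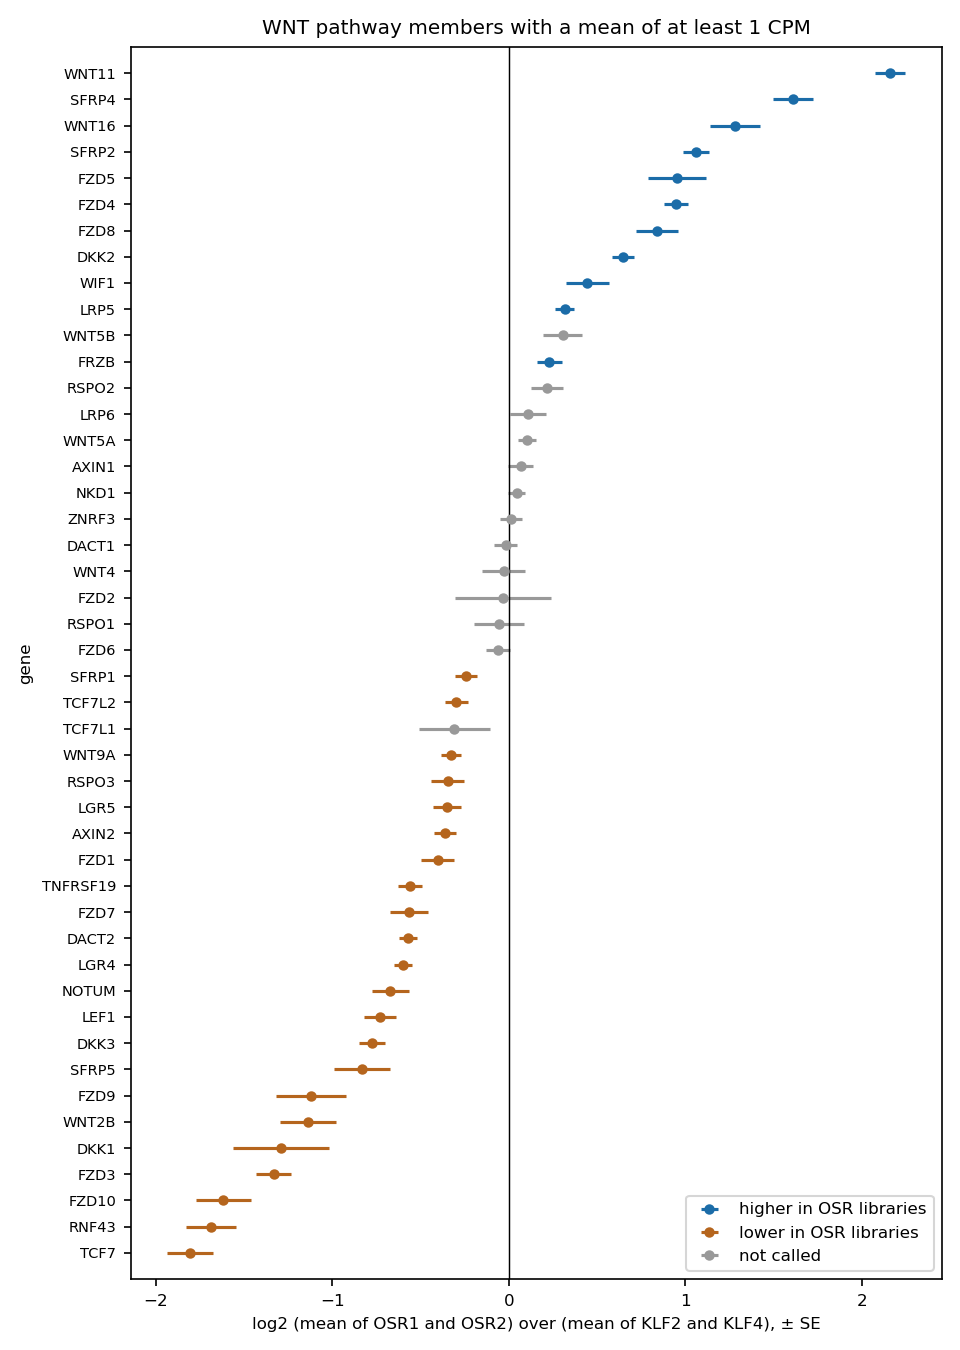
log2 difference between the mean of OSR1 and OSR2 and the mean of KLF2 and KLF4 (horizontal axis, points with SE bars) for the 46 members averaging 1 CPM or more, in order of size; blue points were called higher, brown points lower and grey points neither. WNT11 and SFRP4 stand at the OSR end and TCF7 and RNF43 at the KLF end.

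The paralogs were then set against each other. Between OSR1 and OSR2 libraries, edgeR called 0 of 53 members higher and 0 lower, against 0.00527% of all genes in each direction, 5 members had an unadjusted p under 0.05 (729 of 18979 among all genes), and DESeq2 called 1 (DACT2, log2 OSR1 over OSR2 0.46, adjusted p = 8.93e-05). Among the 46 members averaging 1 CPM or more, the OSR1 over OSR2 difference ran from -0.37 to 0.49. Between KLF2 and KLF4 libraries, 0 of 53 members were higher with KLF2 and 4 (7.55%) lower, against 0.674% and 1.99% of all genes. In either direction 11 had an unadjusted p under 0.05 (2745 of 18979 among all genes), and DESeq2 too called 0 higher and 4 lower. The 4 in edgeR were WNT2 (log2 KLF2 over KLF4 -2.21, SE 0.33, adjusted p = 0.0058), WNT2B (-1.17, SE 0.22, adjusted p = 0.019), TNFRSF19 (-0.66, SE 0.09, adjusted p = 0.0049) and LEF1 (-0.56, SE 0.12, adjusted p = 0.044). Without KLF4 replicate 1 none was called (adjusted p between 0.0764 and 0.399), and without KLF2 replicate 2 or KLF4 replicate 2 only TNFRSF19 was. The LEF1 call was lost in 10 of the 19 alternatives, and without KLF2 replicate 1 the ligand WNT11 was called higher with KLF2 (0.54, adjusted p = 0.0245).

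EGR1 libraries were set against each family in 2 contrasts added after the data had been seen. Over the OSR libraries, EGR1 libraries had 12 of 53 tested members (22.6%) higher and 11 (20.8%) lower, against 8.88% and 8.79% of all genes tested. Over the KLF libraries they had 8 of 53 tested members (15.1%) higher and 15 (28.3%) lower, against 8.07% and 6.31% of all genes tested. DACT2 was higher with EGR1 in both (1.36, SE 0.06, adjusted p = 3.5e-07 over OSR and 0.79, SE 0.06, adjusted p = 2.1e-05 over KLF), as were FRZB (0.89, SE 0.09, adjusted p = 3.9e-05 and 1.12, SE 0.08, adjusted p = 2.1e-05) and SFRP5 (1.85, SE 0.18, adjusted p = 4.3e-05 and 1.02, SE 0.18, adjusted p = 0.0028). RNF43 was higher than in OSR (2.03, SE 0.16, adjusted p = 9.4e-06) and was not called against KLF (0.34, SE 0.16, adjusted p = 0.2). DKK2 (-1.09 and -0.45), TNFRSF19 (-0.55 and -1.11) and WNT9A (-0.61 and -0.93) were lower with EGR1 in both. The call of SFRP5 against KLF was lost without EGR1 replicate 1 (adjusted p = 0.0541). Fewer members were called higher against KLF without EGR1 replicate 1, and fewer lower without EGR1 replicate 2. The share of all genes called in those fits was not counted.

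Other pathway genes were taken from a list of 55, of which 53 were listed and 51 tested. With OSR1, 29 were called higher and 10 lower than in Control, with OSR2 26 and 10, with EGR1 26 and 4, with KLF2 30 and 6, and with KLF4 30 and 7. As shares of the 51, the higher and lower calls were 56.9% and 19.6% for OSR1, against 28.4% and 22.7% of all genes, 50.98% and 19.6% for OSR2 (28.9% and 23.0%), 50.98% and 7.84% for EGR1 (24.6% and 20.5%), 58.8% and 11.8% for KLF2 (28.1% and 23.5%) and 58.8% and 13.7% for KLF4 (28.7% and 25.5%). In each comparison the share of higher calls was thus above that among the members and that among all genes. The 3 with the smallest adjusted p in the joint test were GPC6, SOST and CXXC4. SOST encodes sclerostin, which blocks LRP5 and LRP6, and had 2.55 ± 0.413 CPM with OSR1, 3.34 ± 0.376 with OSR2, 0.937 ± 0.0510 with EGR1, 0.540 ± 0.0115 with KLF2 and 0.391 ± 0.0175 with KLF4, against 0.590 ± 0.0408 CPM in Control. SOST rose with OSR2 (2.50, SE 0.19, adjusted p = 4.1e-06), OSR1 (2.11, SE 0.19, adjusted p = 1.6e-05) and EGR1 (0.67) and fell with KLF4 (-0.59). The glypican GPC6 stood at 0.65 and 0.67 with OSR1 and OSR2 and at -0.62 and -0.97 with KLF2 and KLF4, all called. CXXC4, a Dishevelled-binding inhibitor, fell with OSR2 (-1.86, SE 0.11, adjusted p = 7.7e-07) and OSR1 (-1.58, SE 0.11, adjusted p = 2.8e-06) and was also called lower with EGR1 (-0.30), KLF2 (-0.49) and KLF4 (-0.58). Of the beta-catenin gene CTNNB1, chosen after its values were seen, KLF4 (0.69, SE 0.09, adjusted p = 0.00019) and KLF2 (0.61, SE 0.09, adjusted p = 0.00047) libraries had more, and OSR1 (0.08), OSR2 (0.05) and EGR1 (0.23) were not called.

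Markers of other cell types moved with some of the groups. The shares of all genes called higher and lower than in Control were 28.4% and 22.7% with OSR1. They were 28.9% and 23.0% with OSR2, 24.6% and 20.5% with EGR1, 28.1% and 23.5% with KLF2, and 28.7% and 25.5% with KLF4. The summed level of 10 surface ectoderm markers was 591 and 694 CPM in the KLF4 libraries, against 145 and 153 CPM in Control, between 137 and 239 CPM in the other 8, and 7 of the 10 were called higher and 1 (GRHL3) lower with KLF4. KRT7, KRT19 and CLDN1 held most of that sum, and the epithelial genes EPCAM and ESRP1 were between 2.50 and 7.90 CPM and between 0.178 and 0.496 CPM over the 12 libraries. With KLF4, 5 of 8 endothelial and 4 of 7 tested neural and glial markers were also called higher and 1 of each lower (PECAM1 and ELAVL4), with sums of 417 and 429 and 37.6 and 44.9 CPM, against 385 and 395 and 11.74 and 12.96 CPM in Control. Such calls were not confined to KLF4. Endothelial markers had 4 higher and 2 lower with OSR1 and with OSR2, 3 and 1 with KLF2, and 0 and 1 with EGR1. Neural and glial markers had 4 higher and 1 lower with EGR1, 2 and 2 with OSR2, 2 and 1 with KLF2, and 1 and 1 with OSR1. ERG, at 261 CPM with KLF4 and 266 in Control, was the largest part of the endothelial sum. CDH5, EMCN, TEK, VWF and TIE1 were at most 4.97, 2.90, 2.01, 1.74 and 1.66 CPM in any library. The sum may therefore not be a level of endothelial cells, and which cells held ERG was not tested. KDR was at 107 CPM with KLF4 and 13.4 in Control, and PECAM1 at 42.8 and 106.5. In the neural and glial sum STMN2 was the largest part with KLF4, at 25.1 CPM against 2.56 in Control. FOXD3 was at 0 in 6 libraries. The marker values with KLF4 stand beside the KLF4 levels of WNT2, WNT2B, RSPO4, DKK1, LEF1 and TNFRSF19, and their part in those results was not tested. The 5 smooth muscle markers were all called higher with OSR1, OSR2 and KLF2, 4 of them with EGR1 and 3 with KLF4. They summed to 2502 and 2667 CPM with OSR1 and 2692 and 3072 CPM with OSR2, against 948 and 1079 CPM in Control, beside the OSR levels of WNT11, WNT16, FZD4 and SFRP4, and their part in those was not tested. The 10 loose connective tissue markers of the mesenchyme itself summed to between 13655 and 18947 CPM in factor libraries, against 9522 and 10443 CPM in Control. The largest part was COL1A2, with means from 8760 to 11269.5 CPM with the factors and 6344 in Control. Of the 10, 6 were called higher and 1 lower with OSR1, 8 and 1 with OSR2, 6 and 3 with EGR1, 7 and 2 with KLF2, and 6 and 1 with KLF4. DCN had means of 812, 817, 763, 956 and 1160 CPM in that order, against 1166 in Control. Skeletal muscle markers summed to 517 and 524 CPM with KLF4 and 560.1 and 638 CPM with KLF2, against 780.3 and 829.7 CPM in Control. With each of these 2 factors, 5 of 9 tested (55.6%) were called lower and 3 (33.3%) higher, the latter near the share of all genes. The 7 macrophage markers summed to between 35.04 and 42.3 CPM in all 12 libraries, with single markers moving both ways. Of them, 3 were called higher and 1 lower with OSR1 and with OSR2, 3 higher and 2 lower with EGR1, 3 higher with KLF2 and 2 higher with KLF4. The share called higher was 42.9% with OSR1, OSR2, EGR1 and KLF2. With KLF4 it was 28.6%, near that of all genes.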

How the data were processed

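RNA was measured by stranded poly(A) sequencing of 12 libraries, 2 for each of 6 groups. The deposited files hold whole-number read counts per gene. Per the submitters' processing notes, TopHat2, SAMtools, featureCounts and DESeq2 were used with the genome build galGal4. For their versions, the annotation and the strand setting, the sources used here give nothing, so reads of a gene and of another overlapping it may not have been told apart.

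From those counts, genes were filtered with filterByExpr (minimum count 10), libraries were scaled by TMM (factors 0.9521 to 1.0407), and 1 fit of all 12 libraries was made with edgeR 4.0.16 in R 4.3.3 (quasi-likelihood F test, robust option, 6 residual degrees of freedom). P-values were adjusted by Benjamini-Hochberg over all 18979 genes tested. The SE of a fold change was derived from its F statistic. CPM was taken over TMM-scaled library sizes, and the 12 libraries' total counts of 51233721 to 106079374 set its precision. Intervals cover counting error only.

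Members and lists were chosen with earlier results of these data known. Every member could be named. Values in every library are given for the 24 members with the widest range of group means among those called in the joint test with a mean of at least 1 CPM, and also for WNT9A, SFRP2, AXIN2 and WNT6, chosen after their values were seen. The lists of other pathway genes and of cartilage, skeletal muscle, smooth muscle, loose connective tissue, surface ectoderm, endothelial, macrophage, and neural and glial markers served for comparison. Alternatives were DESeq2 1.42.0, other scalings, no filter, a replicate block, separate fits of the groups compared and leaving out each library. The fit without the robust option and the 2 contrasts of EGR1 with the OSR and KLF families were added after the data had been seen. RefSeq names matched 57 of the 58 members by symbol, and DKK1 keeps the name in the files. Sequences are not used here.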

Additional observations from a re-analysis of the deposited data

How the results depend on the processing

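Over the 10 comparisons, 262 member values were called, and 175 of them kept their direction and call under every alternative run. Of the other 87, each was lost under 1 or more alternatives, most often without Control replicate 1 (51). No member value reversed, and 40 that had not been called were called under 1 or more alternatives. Fitting the groups compared by themselves ended 17 calls, among them those of DKK1, DKK2, FZD2, RSPO1, TCF7L1 and WIF1 in OSR1 over Control, and leaves fewer samples to estimate the spread. DESeq2 ended 7 calls, library totals alone 9, median-of-ratios size factors 4, and neither omitting the low-count filter nor the robust option ended any. The counts of called members changed by over 1.5 times under DESeq2, which called 1 member higher in OSR1 over OSR2 where edgeR called 0, and with library totals alone, which called 12 lower in KLF2 over Control where TMM scaling called 7. The cause was not tested.

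Leaving out each library in turn left 1 sample in its group, which was taken to vary like the other groups. The share of all genes called was not counted in these fits, so the ranges below stand without it. The members called higher then ranged from 16 to 25 in OSR1 over Control, 18 to 27 in OSR2, 10 to 24 in EGR1, 16 to 31 in KLF2 and 23 to 30 in KLF4, and those called lower from 9 to 13, 8 to 12, 4 to 7, 7 to 10 and 8 to 10 in the same order. KLF2 over KLF4 had 0 to 1 higher and 0 to 4 lower. EGR1 over the OSR family had 9 to 13 higher and 10 to 13 lower, and EGR1 over the KLF family had 4 to 9 higher and 9 to 17 lower. The OSR family over the KLF family had 9 to 13 higher and 22 to 26 lower.

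The replicate numbers showed no pairing common to all groups. Over 15 pairs of groups, deviations of same-numbered libraries from their group means correlated with r between -0.290 and 0.222. In 4 pairs r was over 0.1: OSR1 with OSR2 (0.103), OSR1 with Control (0.222), OSR2 with Control (0.112) and EGR1 with KLF2 (0.116). Each of OSR1, OSR2 and Control had a negative r with EGR1 and with KLF2. A batch shared by libraries of unlike replicate number was not tested. A replicate block ended 6 calls among the 530 member values and added 1, and no count of called members under the block differed by more than 1 from that without it.

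Low counts and the spread between replicates both enter the SE. FZD2, with at least 1204 counts in every library, had an SE of 0.40 in OSR1 over Control. Among members with few counts, the SE of the log2 fold change over Control was largest for WNT10A, at up to 1.00.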
